A study of Mus musculus with 143 samples.

Results

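The regions described here are 633 wide domains of trimethylated histone H3 lysine 27 (H3K27me3) in growing mouse oocytes. They are autosomal peaks of at least 5 kb in the first p20 control list that overlapped, by 1 bp or more, a peak of at least 5 kb in control list 2 or 3. Of the 150670 autosomal peaks of control 1, 897 were at least 5 kb wide, and 633 of these met the overlap rule. The widths measured in the p20 controls chose the domains, so every value of the p20 controls in them is a description and carries no test. The domains added up to 5015.74 kb, which was 3.90% of the length covered in control 1 and 0.420% of its peaks.

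The study profiled oocytes lacking the nuclear RNA exosome ribonucleases DIS3 and EXOSC10. H3K27me3 was mapped by CUT&Tag, in which an antibody-tethered transposase tags the chromatin around a mark, in 12 libraries of pooled oocytes, 3 per group. The groups were p20 control, p20 dcKO (the double conditional knockout), adult GV control and adult GV Dis3 conditional knockout (dis3cKO), where GV is the germinal vesicle stage of fully grown oocytes. Ribosomal-RNA-depleted RNA from single oocytes, 8 per group, was measured for the same 4 groups and for p20 Dis3 and p20 Exosc10 single knockouts, and RNA polymerase II was mapped by CUT&Tag in 9 libraries of 3 groups (p20 control, adult control and adult Dis3 knockout). The labels state that the mutant mice were made with CRISPR/Cas9 and do not name the Cre driver or how many animals or oocytes entered a library. The 8 oocytes of an RNA group are titled under 2 tags; what a tag stands for is not stated, and each oocyte was counted as a replicate. In the RNA libraries, Dis3 stood at 13.1 ± 4.54 CPM (counts scaled to a library's gene counts; SD, n = 8) in p20 controls and 3.10 ± 1.11 in dcKO. In adults it stood at 14.9 ± 5.34 in controls and 1.85 ± 0.996 in the Dis3 knockout. Exosc10 stood at 113 ± 8.28 CPM in p20 controls and 7.84 ± 4.67 in dcKO, so both target transcripts were low in the libraries labelled dcKO.

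H3K27me3 is written by the Polycomb repressive complex PRC2, whose catalytic subunit is EZH1 or EZH2, and is removed by the demethylases KDM6A and KDM6B. In most cells it marks the CpG-rich promoters of silent developmental regulators, such as Hox, Pax and Gata genes. Growing mouse oocytes also carry it as broad domains over gene deserts and poorly transcribed chromatin, and at a small group of genes the maternal mark is passed to the embryo as a noncanonical imprint.

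Gene starts inside the domains were rich in CG dinucleotides. Of 385 listed RefSeq starts in domains, 62.9% had at least 10 CG in the 250 bases before the start, against 38.3% of all 31396 autosomal starts. At least 1 CG was found before 99.7% of the starts in domains and 92.4% of all starts. The letters searched were CG, which reads the same on both strands. The median was 12 CG per 250 bases in domains and 6 over all starts, and for protein-coding starts alone 13 and 10. The 250 bases before the first listed start are shown for 6 genes, with each CG in capitals, in the direction of transcription (RefSeq, GRCm38). Pax6 (chr2:105668646-105668895, + strand, 15 CG), Cdx2 (chr5:147307250-147307499, − strand, 13 CG) and Gata2 (chr6:88193641-88193890, + strand, 22 CG) stand for the developmental regulators. Igf2 (chr7:142658805-142659054, − strand, 22 CG) starts in the domain best covered in adult controls, and Gstm1 (chr3:108017974-108018223, − strand, 13 CG) in the domain least covered there. Ccno (chr13:112987552-112987801, + strand, 26 CG) starts in a domain that was empty in all 6 mutant lists.
Pax6: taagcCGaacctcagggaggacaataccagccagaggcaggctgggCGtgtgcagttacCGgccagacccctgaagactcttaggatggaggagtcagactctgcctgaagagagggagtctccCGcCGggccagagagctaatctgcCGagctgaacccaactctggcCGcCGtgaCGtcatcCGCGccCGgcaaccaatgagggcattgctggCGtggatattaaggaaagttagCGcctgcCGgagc
Cdx2: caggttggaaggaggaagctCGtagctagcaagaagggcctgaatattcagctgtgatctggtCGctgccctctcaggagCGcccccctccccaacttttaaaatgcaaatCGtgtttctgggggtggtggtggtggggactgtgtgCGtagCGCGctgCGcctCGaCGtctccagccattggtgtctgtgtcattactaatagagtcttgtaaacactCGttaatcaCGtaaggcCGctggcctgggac
Gata2: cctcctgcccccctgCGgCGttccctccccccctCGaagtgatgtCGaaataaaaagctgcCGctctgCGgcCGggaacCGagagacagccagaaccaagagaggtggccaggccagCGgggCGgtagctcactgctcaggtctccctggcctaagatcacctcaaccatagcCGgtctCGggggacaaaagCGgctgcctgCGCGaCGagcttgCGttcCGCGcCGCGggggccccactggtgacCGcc
Igf2: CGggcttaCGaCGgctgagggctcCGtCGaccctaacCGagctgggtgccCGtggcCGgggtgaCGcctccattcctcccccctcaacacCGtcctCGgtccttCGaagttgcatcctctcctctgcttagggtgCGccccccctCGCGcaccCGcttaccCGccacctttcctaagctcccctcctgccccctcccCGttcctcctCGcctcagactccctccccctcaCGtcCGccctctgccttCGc
Ccno: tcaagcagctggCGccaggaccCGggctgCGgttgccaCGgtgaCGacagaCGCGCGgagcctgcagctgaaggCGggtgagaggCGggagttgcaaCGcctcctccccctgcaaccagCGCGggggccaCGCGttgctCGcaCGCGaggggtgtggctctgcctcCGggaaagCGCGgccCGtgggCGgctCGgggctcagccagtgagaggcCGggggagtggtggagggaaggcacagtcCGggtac
Gstm1: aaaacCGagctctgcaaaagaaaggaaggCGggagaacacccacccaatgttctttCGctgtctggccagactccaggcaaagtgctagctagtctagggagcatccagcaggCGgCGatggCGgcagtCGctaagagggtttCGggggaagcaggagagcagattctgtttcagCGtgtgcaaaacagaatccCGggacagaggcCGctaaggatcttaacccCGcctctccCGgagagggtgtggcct

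The Ccno stretch has the most CG of the 6, and the Cdx2 and Gstm1 stretches the fewest.

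The domains ranged from 5001 to 87823 bp. Their quartiles were 5826, 6734 and 8756 bp, and 104 were 10 kb or longer. Control 2 also had a wide peak at 560 of them and control 3 at 416, with 343 wide in all 3 p20 controls. A gene overlapped 574 domains, 241 held a listed gene start, and 59 held no gene. Another domain lay within 10 kb of 199 domains and within 100 kb of 309. Chromosome 2 held the most, 77 domains (12.2% of the domains and 8.23% of the peaks of control 1). Just above the width threshold were domains in the bodies of the calcium channel genes Cacna1c (5001 bp) and Cacna1a (5013 bp) and of the homeobox gene Barx2 (5007 bp), and the peaks just below it measured 4996, 4988 and 4981 bp.

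Adult control library 2 stood apart from the other 11. Chromosome X made up 11.2% of its covered length, against 2.75% to 4.10% elsewhere, and it held 1440 autosomal peaks of at least 5 kb, against 142 and 145 in adult controls 1 and 3. Means of the adult controls below include that library; its own list or the mean without it is given beside many of them. The lists also differed in size: the p20 controls held 146431 to 154486 autosomal peaks, dcKO 235005 to 286989, the adult controls 94947, 178429 and 84033, and the Dis3 knockout 214771 to 264257. Reads had been sampled to the same number in each CUT&Tag library.

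Both mutants kept H3K27me3 over roughly the same share of the domain bases, and both were well below their controls. Peaks covered 100%, 95.3% and 91.9% of domain bases in p20 controls 1 to 3, the first by construction. In dcKO lists 1 to 3 they covered 47.1%, 49.3% and 39.7%. The adult controls had 75.5%, 89.7% and 77%, and the Dis3 knockout 55.3%, 45.2% and 44.3%. All 6 mutant lists lay below all 6 control lists, and adult control 2 was the highest of the adult lists. Of the controls, only the adult lists had no part in choosing the domains. The group means were 95.7% ± 4.06, 45.4% ± 5.03, 80.7% ± 7.79 and 48.2% ± 6.12 (SD, n = 3 each). The libraries came from pooled oocytes, so fewer oocytes carrying a mark and less mark per oocyte cannot be told apart.

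**Figure D1:**
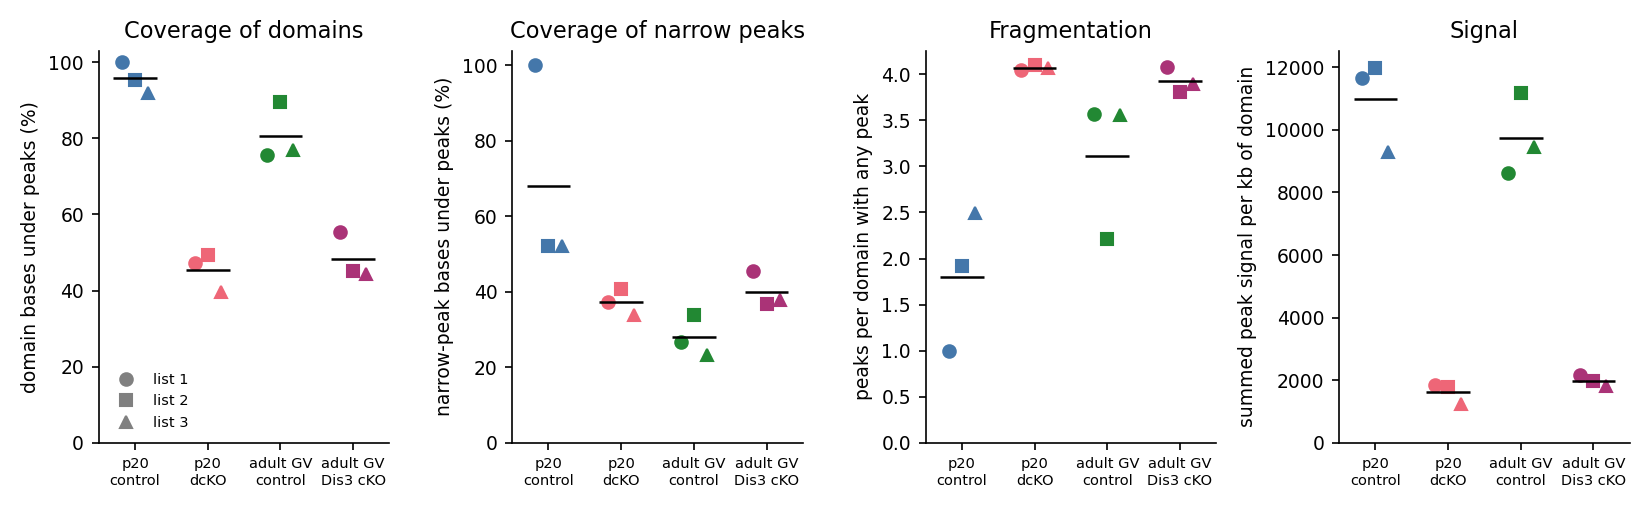
Measures in the 12 H3K27me3 lists, with a point per list and a line at the group mean: percent of domain bases covered, percent of narrow-peak bases covered, peaks per domain touched, and the authors' signal per kb of domain. Coverage and signal of domains are lower in all 6 mutant lists than in all 6 control lists; p20 control 1 is at 100 by construction in both coverage panels.

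Because the rule used the p20 controls, the p20 coverage was also read in a control list left out of the choice. With domains chosen from the other two control lists, the left-out controls 1, 2 and 3 covered 93.1%, 95.5% and 91.9% of the bases, over 474, 416 and 560 domains. The dcKO means over the same domains were 47.1%, 47.4% and 44.7%. The distance between dcKO and a control that had no part in the choice was thus between 46.1 and 48.1 percentage points, close to the 50.3 points of the whole set.

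The adult lists had no part in the choice and could be tested. Coverage was 32.5 percentage points lower in the Dis3 knockout than in adult controls (exact 2-sided permutation test, p = 0.10, n = 3 and 3). That p is the smallest that 3 against 3 lists can give, and it stays 0.10 after Benjamini-Hochberg adjustment over the 4 adult measures tested. Without adult control 2 the difference was 28.0 points (smallest possible p 0.20). The labels do not say that the 3 lists of a group come from separate animals, so these p-values measure only the spread between these libraries.

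Taken domain by domain, 373 of 633 (58.9%) were covered less in all 3 Dis3 knockout lists than in all 3 adult controls. Over all 150670 autosomal peaks of p20 control 1, 2.31% had that order. The opposite order, higher in all 3 knockout lists, was found for 15 domains (2.37%) and for 7.91% of all peaks. A domain is far longer than a typical peak, which had a median of 637 bp in control 1, and the part of length in these shares was not tested. Without adult control 2, 387 domains were lower and 31 higher. When every list was trimmed to the same number of peaks or the same covered length, or to peaks of high signal, 391 to 415 domains were lower and 7 to 13 higher.

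**Figure D2:**
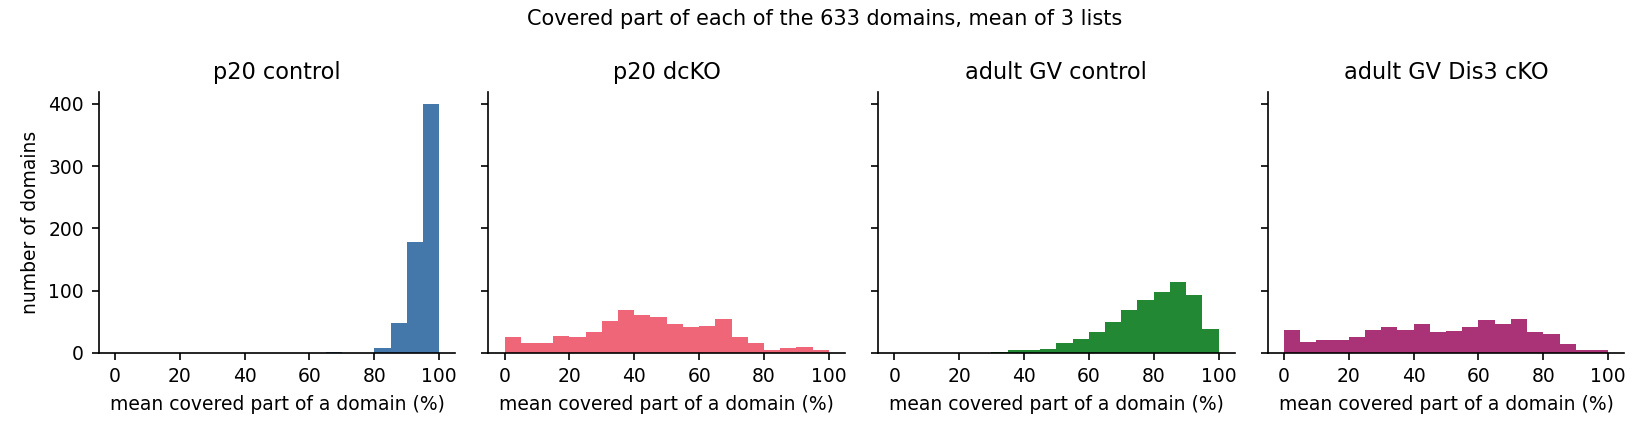
Number of the 633 domains (vertical axis) by mean percent of the domain covered over the 3 lists of a group, in bins of 5 percentage points. The p20 controls are crowded near full coverage (median 96.3%) and the adult controls sit around 81.3%, while dcKO (44.5%) and the Dis3 knockout (50.7%) spread over the whole range.

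Single domains varied widely within the mutants. The quartiles of mean coverage were 31.3%, 44.5% and 61.1% in dcKO and 30.6%, 50.7% and 68.4% in the Dis3 knockout. Those of the adult controls were 71.2%, 81.3% and 88.8%. At least 80% coverage in all 3 lists was seen for 559 domains in p20 controls, 153 in adult controls, 19 in dcKO and 19 in the Dis3 knockout. Under 20% in all 3 lists was seen for 50 domains in dcKO and 59 in the Dis3 knockout, and for none in either control group. No peak at all in any of the 3 lists was seen for 14 domains in dcKO and 17 in the Dis3 knockout.

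What remained in the mutants was broken into short pieces, though adult controls 1 and 3 had only slightly fewer pieces. The number of peaks per domain touched was 1 (by construction), 1.92 and 2.50 in the p20 controls, which chose the domains, and 4.05, 4.10 and 4.07 in dcKO. It was 3.57, 2.21 and 3.56 in the adult controls, and in the Dis3 knockout 4.08, 3.81 and 3.90. The adult groups differed by 0.815 pieces (exact 2-sided permutation test, p = 0.10, n = 3 and 3), but by 0.365 without adult control 2, the least broken of the 3. With equal numbers of peaks per list the adult difference turned to -0.166, and with equal covered length to -0.349, so its direction depended on how many peaks of each list were counted. The longest piece was shorter in every mutant list than in every control list, though the p20 controls had been chosen for wide peaks. Its median over domains was 6734, 5574 and 4932 bp in the p20 controls, 1364, 1408 and 1113 bp in dcKO, 2885, 5560 and 2859 bp in the adult controls, and 1713, 1370 and 1348 bp in the Dis3 knockout.

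Few domains were wide in the mutants. A peak of at least 5 kb touched 17, 22 and 11 domains in dcKO lists 1 to 3, 106, 450 and 120 in the adult controls and 34, 15 and 22 in the Dis3 knockout. A wide peak was present in at least 1 adult control list for 477 domains, and for 302 of these in control 2 only. A single piece spanning at least 80% of the domain was found for 375 and 231 domains in p20 controls 2 and 3. In adult controls 1 and 3 it was found for 41 and 46, in adult control 2 for 372, and in the 6 mutant lists for 4 to 10. Adult controls 1 and 3 therefore covered most domain bases but seldom in 1 piece. The same width rule applied within each other group gave 24 domains in dcKO (16 of them overlapping the 633), 105 in adult controls (94) and 25 in the Dis3 knockout (17). In the 25 chosen in the Dis3 knockout the order was reversed, with a mean of 92.1% covered in the knockout and 72.7% in adult controls, where the knockout's own values made the choice.

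The signal in the domains differed between mutants and controls by more than their coverage did. The authors' peak signal per kb of domain was 11672, 11992 and 9306 in the p20 controls and 1835, 1794 and 1238 in dcKO. The adult controls had 8621, 11169 and 9459, and the Dis3 knockout 2168, 1982 and 1813. The highest mutant list was below the lowest control list at both stages. The control means were 6.77 times the dcKO mean and 4.90 times the Dis3 knockout mean, or 4.55 times without adult control 2. Bases outside the called peaks add nothing to this signal, so the ratios combine coverage with the signal of covered bases. On the log2 scale the adult difference was -2.29 (exact 2-sided permutation test, p = 0.10, n = 3 and 3). By domain, 476 of 633 (75.2%) had less signal in all 3 knockout lists than in all 3 adult controls, against 3.61% of all peaks of p20 control 1. No domain had more, against 6.41% of all peaks.

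The bases still covered also had a lower pileup in the mutants. Mean signal per covered base was 11.7, 12.6 and 10.1 in the p20 controls and 3.89, 3.64 and 3.11 in dcKO, a ratio of group means of 3.23. It was 11.4, 12.5 and 12.3 in the adult controls and 3.92, 4.39 and 4.10 in the Dis3 knockout, a ratio of 2.92. The domains held 9.80%, 10.1% and 8.09% of all autosomal peak signal in the p20 controls and 8.96%, 11.1% and 10.6% in the adult controls. In the mutants that share was 1.93%, 1.75% and 1.45% (dcKO) and 2.02%, 2.05% and 1.9% (Dis3 knockout).

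Narrow peaks showed another order in adults. The comparison set was the 91869 autosomal peaks under 2 kb of p20 control 1 that met a peak of control 2 or 3. Peaks covered 26.8%, 33.9% and 23.2% of their bases in the adult controls and 45.6%, 36.6% and 37.7% in the Dis3 knockout, so all 3 knockout lists were above all 3 controls. In the domains the order was the reverse. The knockout lists also covered more of the autosomal length, 7.59%, 5.97% and 6.26%, against 2.96%, 5.48% and 2.62% in adult controls. The part of list size in the narrow-peak order was not tested. The log2 ratio of domain coverage to narrow-peak coverage was 1.27 lower in the knockout (exact 2-sided permutation test, p = 0.10, n = 3 and 3), and 1.18 to 1.34 lower when any 1 adult list was left out. In dcKO the narrow peaks were covered to 37.3%, 40.6% and 33.8%, and in p20 controls 2 and 3 to 52.0% and 52.2%.

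Coverage was highest in the middle of the domains. Each domain was cut into 10 equal parts. From the outer to the middle parts, coverage rose by 22.2, 6.74 and 18.8 percentage points in adult controls 1 to 3 and by 11, 10.3 and 7.71 in the Dis3 knockout. In dcKO the rise was 10.1, 7.77 and 7.20, and in p20 controls 2 and 3 it was 8.38 and 12.5. Around the 385 listed starts, the kilobase just after the start was covered to 88.3% ± 5.10 in adult controls and 46.3% ± 2.62 in the Dis3 knockout (SD, n = 3 each); without adult control 2 the former was 85.4%. At p20 it was covered to 96.1% ± 1.97 in controls and 40.5% ± 6.26 in dcKO. In the kilobase just before the start the mutants had 42.4% ± 7.25 (Dis3 knockout) and 39.8% ± 6.08 (dcKO), so their profiles were low on both sides of the start.

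**Figure D3:**
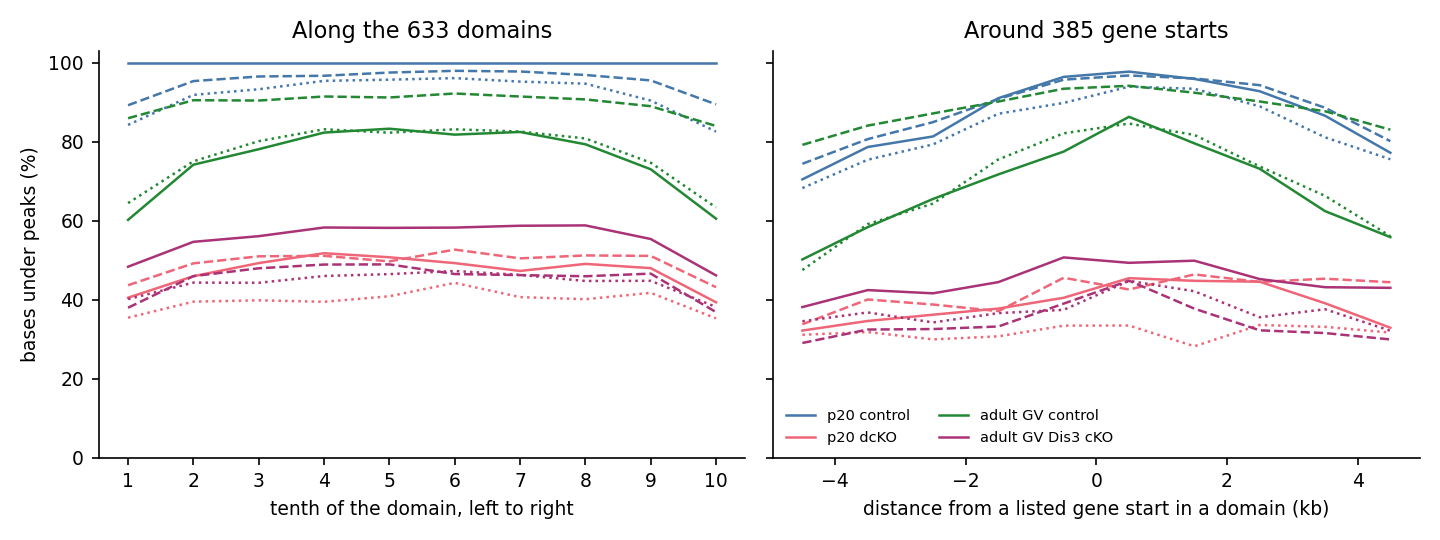
Percent of bases covered along the domains, in 10 equal parts of each domain, and in 1 kb bins within 5 kb of the 385 gene starts in domains; colours are groups, and solid, dashed and dotted lines are lists 1, 2 and 3. The mutant lines lie below all control lines in every bin near the start, and coverage falls toward the domain ends in every list but p20 control 1, which is at 100% along the domains by construction.

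Domains with low coverage in one mutant mostly had low coverage in the other. Across the 633 domains, mean coverage in dcKO and in the Dis3 knockout had a Pearson r of 0.852 (Spearman rho 0.848). The points share the genome sequence, its mappability and the domain lengths, and each mean is over 3 lists. Mean coverage in adult controls and in the Dis3 knockout had r = -0.195. Domain length had a rho of 0.0146 with dcKO coverage. The mean pileup of a domain in p20 control 1 had a rho of 0.753 with adult control coverage and -0.296 with Dis3 knockout coverage. Pairs of lists within a mutant had an r across domains of 0.724 to 0.731 in dcKO and 0.793 to 0.803 in the Dis3 knockout, against 0.142 to 0.523 in adult controls.

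Domains over developmental regulators were covered least of 5 content classes in both mutants. Domains over a listed developmental regulator (82 domains) were covered to 96.6% in p20 controls and 86.2% ± 11.2 in adult controls, but to 32.8% ± 6.35 in dcKO and 35.7% ± 6.54 in the Dis3 knockout (SD, n = 3). The adult control lists had 77.2%, 98.7% and 82.7%, a mean of 79.9% without control 2. The 59 domains with no gene were covered to 96.3% and 80.7% in the controls, and to 59.6% ± 4.50 in dcKO and 61.8% ± 5.05 in the Dis3 knockout. Without adult control 2 the adult control value was 77.4%. A group of 8 neighbouring domains on chromosome 6 (chr6:114496566-114637689) made up 26.7% of the bases with no gene, and the other 51 domains were covered to 48.2% ± 4.11 in dcKO and 53.4% ± 6.16 in the Dis3 knockout. Other domains with a coding start (153) had 40.9% and 43.5% in the mutants, domains with a noncoding start only (48) had 45.2% and 47.1%, and domains in gene bodies (291) had 48.9% and 52.1%. Outside the chromosome 6 group, domains with no gene were thus within the spread between lists of those in gene bodies.

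List by list, the domains with no gene minus those of regulators differed by 27.4, 24.6 and 28.6 points in dcKO and by 24.2, 27.9 and 26.0 points in the Dis3 knockout. In the adult controls the same difference was -0.716, -11.3 and -4.35 points. Without the chromosome 6 group, left out after its values were seen, it was 14.9, 13.4 and 17.9 in dcKO, 17.2, 18.8 and 17.1 in the Dis3 knockout and -8.79, -12.4 and -11.4 in the adult controls. The knockout and adult control lists did not overlap either way. These classes were compared after coverage by class had been seen, so no test is given.

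**Figure D4:**
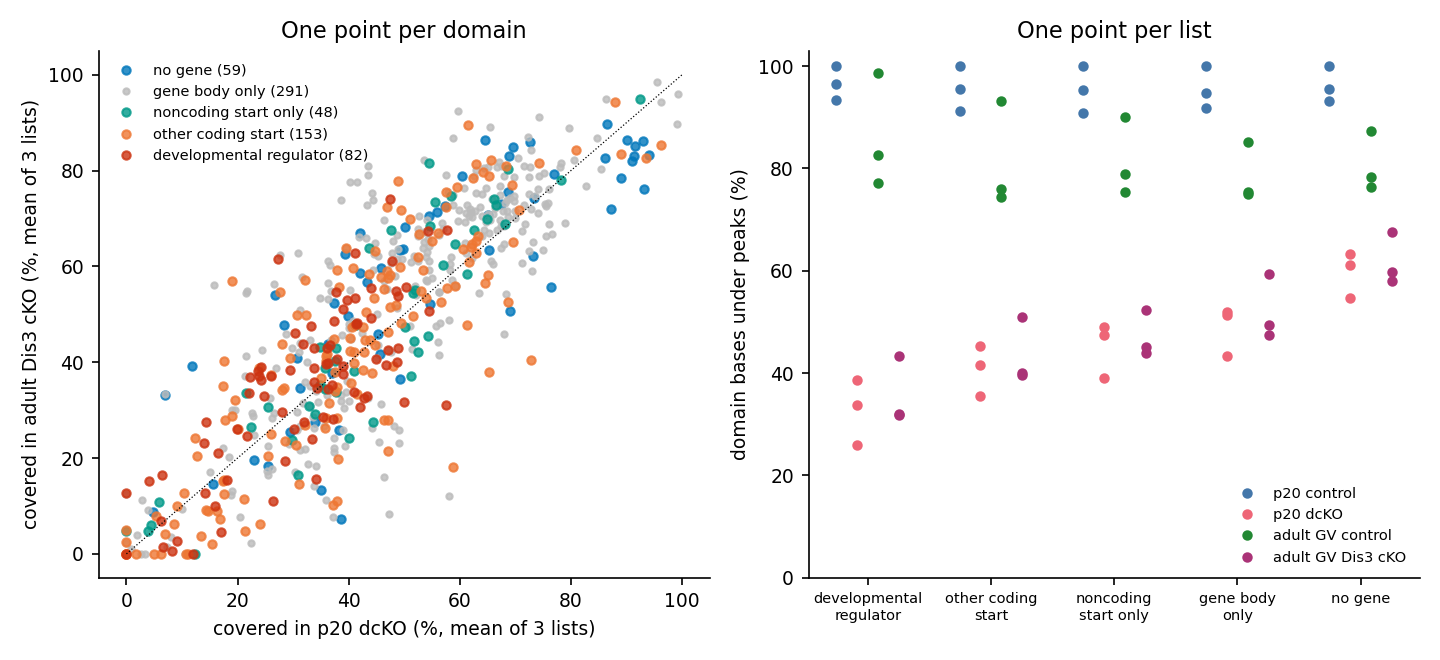
Left, mean percent covered in the Dis3 knockout (vertical) against dcKO (horizontal) for each of the 633 domains, coloured by contents; right, percent covered by contents class in each of the 12 lists, a point per list. Domains over developmental regulators lie low in both mutants and high in both control groups.

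CG content at the starts followed the same order. The 163 domains with a start of at least 10 CG were covered to 36.7% ± 5.80 in dcKO and 39.2% ± 6.08 in the Dis3 knockout. The 78 domains whose starts had fewer CG had 48.8% ± 4.65 and 50.8% ± 5.92, close to the 48.9% and 52.1% of the 392 domains with no listed start. Adult controls had the opposite order, with 84.0% in the first class and 78.6% in the second, or 78.0% and 74.1% without control 2. The rho between CG count and coverage over the 241 domains with a start was -0.194 in dcKO and -0.184 in the Dis3 knockout, and 0.263 in adult controls, all weak.

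Polycomb developmental regulators were frequent in the domains. From a list of 126 transcription factor and signalling genes, 84 had a listed autosomal start, and 31 of these starts (36.9%) lay in a domain, against 1.18% of all 25748 genes with a listed start. The bodies of 66 of 125 listed regulators (52.8%) overlapped a domain, against 1.64% of all autosomal genes. None of the starts of the oocyte genes (9 with a listed start), granulosa markers (10), maternal DNA methylation imprints (13), noncanonical imprints (11) or PRC2 and demethylase genes (10) lay in one. The bodies of Otx2, listed among the noncanonical imprints, and of Epop, a PRC2 cofactor, did overlap one.

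The domains of the 31 regulators ranged in dcKO from 0% at Barhl1 and Isl2, which encode neural homeobox factors, to 57.6% at Foxa2, a regulator of endoderm, with a median of 33.3%. In adult controls they ranged from 74.2% at Gata3 to 97.3% at Lhx1, with a median of 88.1%. Without control 2 that range was 61.3% to 95.9%, with the same genes at its ends and a median of 82.2%. In the Dis3 knockout they ranged from 0% at Gata3 and Isl2 to 61.6% at Hoxa5, with a median of 37.1%. The highest dcKO value was thus below the lowest value of the adult controls. The highest of the Dis3 knockout was below it only with control 2 included.

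Pax6, a master regulator of the eye and brain, starts in a domain of chr2:105658842-105678314. That domain was covered to 100%, 97.1% and 95.3% in p20 controls 1 to 3 and to 9.25%, 29.9% and 15.1% in dcKO. In the adult controls it was covered to 73.6%, 99.6% and 81.9%, and in the Dis3 knockout to 33.5%, 3.75% and 9.18%. Every mutant list was below every adult control list, and below the p20 controls that chose the domain. Cdx2, which directs trophectoderm and hindgut fate, starts in a domain of chr5:147298989-147319843. It was covered to 20.2%, 41.2% and 26.9% in dcKO, to 67.8%, 100% and 76.5% in adult controls and to 39.5%, 37.8% and 37.7% in the Dis3 knockout, again with no overlap. Gata2, a blood stem cell factor (chr6:88189232-88207198), kept more: 65.6%, 56.2% and 29.4% in dcKO and 64.2%, 55.3% and 47.8% in the Dis3 knockout, below the 79.7%, 97.7% and 91.4% of adult controls. Isl2, a motor neuron factor, had no peak in its domain (chr9:55540087-55547453) in any of the 6 mutant lists and 81.4%, 100% and 83.0% coverage in adult controls. Gata3, a T cell and trophoblast factor (chr2:9870744-9880309), was at 0% in all 3 Dis3 knockout lists and at 12.6%, 13.1% and 10.3% in dcKO. Barhl1 (chr2:28907563-28913310) showed the other pattern, with 0% in all 3 dcKO lists and 13%, 25.2% and 0% in the Dis3 knockout.

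All 4 Hox clusters, which pattern the body axis, carried groups of neighbouring domains. Over all 633 domains the means were 45.4% in dcKO, 80.7% in adult controls and 48.2% in the Dis3 knockout. The 7 domains of the HoxA cluster (chr6:52154934-52278396) were covered to 31.5% in dcKO, 83.7% in adult controls and 41.9% in the Dis3 knockout. The 5 of HoxC (chr15:102915979-102968237) had 30.8%, 89.7% and 35.6%, the 5 of HoxB (chr11:96180660-96310243) 33.8%, 87.5% and 42.9%, and the 5 of HoxD (chr2:74672218-74755344) 43.5%, 84.8% and 40.5%. HoxD in dcKO, and HoxA and HoxB in the Dis3 knockout, were within or near the spread between lists of all domains. In each cluster the 6 mutant lists lay below the 6 control lists, an order also found in 12 of the 17 groups of at least 4 neighbouring domains and for 340 of the 633 single domains (53.7%). The p20 controls chose the domains, so the p20 part of that order follows in part from the rule. Without adult control 2 the adult control means were 75.7% (HoxA), 85.2% (HoxC), 81.3% (HoxB) and 78% (HoxD).

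Igf2, a fetal growth factor imprinted through DNA methylation, started in the domain best covered in adult controls (chr7:142653783-142659360; 99.4%, 99.6% and 99.8%). It was covered to 41.4%, 47.9% and 24.2% in dcKO and to 34.8%, 33.6% and 36.4% in the Dis3 knockout. Its signal per kb was 11989, 17912 and 13183 in adult controls and 1429, 1825 and 656 in the knockout, an order without overlap. Also among the 5 best covered were the 5S array and 1 gene-free domain described next, a domain in Ahnak2, and a domain at the noncoding gene CJ186046Rik (chr17:85688309-85693601). The last was covered to 99.7%, 100% and 98.0% in adult controls, 61.3%, 64.2% and 24.8% in dcKO and 63.7%, 36.2% and 42.0% in the Dis3 knockout, with no overlap. Gstm1, a glutathione transferase, started in the domain least covered in adult controls (chr3:108015200-108021301; 55.2%, 26.8% and 21.0%) and was covered more in all 3 knockout lists (72.9%, 62.7% and 91.1%). Its signal per kb was 5431, 534 and 1756 in adult controls and 1993, 3665 and 3418 in the knockout, which overlap. The best and least covered domains were picked by their adult control values, so their order against the mutants partly follows from the choice. The next least covered were domains in Epb41l1, Col2a1, Foxi1 and Tns1, which encode a cytoskeletal adaptor, a cartilage collagen, a forkhead factor and a focal adhesion protein.

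The 10 longest domains differed widely in the mutants. The longest, 87823 bp over the 5S ribosomal RNA array (chr8:123536858-123624680), was covered to 60.6%, 33.0% and 18% in dcKO and to 18.1%, 5.14% and 0% in the Dis3 knockout, against 99.3%, 99.5% and 99.3% in adult controls. It was in 48, 44 and 33 pieces in dcKO. RNA polymerase II peaks covered a mean of 98.9% of it. A domain over a tRNA cluster beside Fcgr3 (chr1:171063721-171086417) was covered to 0%, 6.14% and 23.8% in dcKO and to 19.4%, 6.87% and 1.80% in the Dis3 knockout. Polymerase peaks covered a mean of 8.41% of it, with group means of 11.5% (p20 controls), 3.81% (adult controls) and 9.93% (adult Dis3 knockout). These arrays are multicopy, the handling of reads that map to several copies is not given in the sources used here, and its part in the values was not tested. The 8 gene-free domains of chr6:114496566-114637689 kept 91.1% coverage in dcKO, 95.6% in adult controls and 84.7% in the Dis3 knockout. The 3 longest of them (chr6:114586162-114623259, chr6:114561637-114585898 and chr6:114508382-114527469) are among the 10, with means of 90.2%, 93.0% and 90.9% in dcKO and 86.3%, 86.1% and 81.9% in the Dis3 knockout.

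The other long domains held gene starts. A domain at the noncoding genes Gm52861 and Gm52862 (chr6:47737053-47757484) also stayed covered, to 94.8%, 99.0% and 83.4% in dcKO, 99.9%, 85.5% and 95.8% in adult controls and 91.8%, 98.5% and 94.8% in the Dis3 knockout. Those ranges overlapped. Polymerase peaks covered a mean of 14.7% of it over the 9 libraries. The group means were 9.07% in p20 controls, 3.37% in adult controls and 31.6% in the adult Dis3 knockout. The domain of Pax7, a muscle and neural crest factor (chr4:139818888-139840633), was covered to 24.5%, 49.8% and 25.3% in dcKO, 76.4%, 100% and 88.0% in adult controls and 51.1%, 43.0% and 48.7% in the Dis3 knockout. All 6 of its mutant lists were below all 3 adult controls. A domain over Jak3, a cytokine receptor kinase, and Insl3, a gonadal hormone (chr8:71675757-71694862), had 69.5%, 68.0% and 51.4% in dcKO, 77.5%, 87.0% and 86.4% in adult controls and 74.3%, 64.1% and 57.5% in the Dis3 knockout, again without overlap but closer. The Pax6 and Cdx2 domains complete the 10.

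Coverage of at least 80% in all 3 lists was kept by 11 domains in both mutants, and 36 were under 20% in all 6 mutant lists; both thresholds were chosen after the values were seen. Of the 19 domains kept in dcKO, 10 held no gene, against 59 of all 633 domains. A single locus, the chromosome 6 group just described, held 7 of the 19. None of the 19 was over a developmental regulator, against 82 of the 633. Coverage of these 19 domains in the Dis3 knockout was 88.7%, 86.7% and 85.2%, and in adult controls 95.7%, 84.9% and 93.3%. Their signal was still lower in the mutants, with a mean per kb of 4993 in dcKO against 10477 in p20 controls, and of 4261 in the Dis3 knockout against 7724 in adult controls. In adult control lists 1 to 3 it was 10283, 2953 and 9935, so control 2 lay below the knockout mean there. Only 3 domains were at least 5 kb wide in all 6 mutant lists, in or near the genes Mroh2a (chr1:88234797-88240751), Akap6 (chr12:52926303-52932526) and Ahnak2 (chr12:112775928-112785207). The 50 domains under 20% in dcKO included 10 (20%) over developmental regulators, which make up 13% of all domains. They were covered to 68.0%, 98.5% and 70.9% in adult controls and to a mean of 7.58% in the Dis3 knockout.

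RNA polymerase II peaks covered 2.12% to 4.30% of domain bases in the 9 libraries, and 0.397% to 2.61% without the 5S array. The median domain was covered to 0% in each library. Polymerase peaks covered a mean of at least 10% of 14 domains, and 4 domains had one in all 9 lists. Leaving out the 14 gave an adult difference in coverage of -31.6 points. Leaving out these domains or the 5S array was chosen after seeing the data.

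The genes starting in the domains were mostly silent. Of 303 genes with a listed start in a domain, 248 had a row of RNA counts. In p20 controls 41 of these (16.5%) reached 1 CPM on average, against 23.6% of all genes, and 102 had no count in any of the 8 libraries. Among protein-coding genes the shares were 19.5% in domains and 53.8% overall. Of the 31 regulators, 7 reached 1 CPM and 10 had no count. The libraries held 8492102 to 35429028 gene counts. Summed oocyte genes stood at 13646 to 18250 CPM in p20 controls and summed granulosa markers at 124 to 180 CPM, and 8 of 12 granulosa markers reached 1 CPM. Oocyte gene sums ranged from 18448 to 22857 in dcKO, wholly above the p20 controls, from 10836 to 16329 in adult controls and from 9907 to 13287 in the Dis3 knockout. Granulosa sums ranged from 132 to 214 in dcKO, 76.2 to 142 in adult controls and 94.6 to 177 in the Dis3 knockout. In dcKO, of 8 granulosa markers tested 1 (12.5%) was higher and 1 (12.5%) lower, against 26.6% and 27.1% of all genes. Nr5a2 rose from a mean of 79.2 CPM to 130, and Cyp19a1 fell from 27.4 to 4.97. In the adult Dis3 knockout 1 of 9 (11.1%) was higher, also Nr5a2, and 0 lower, against 15.7% and 12.4% of all genes. The part of these sums and markers in the RNA values of domain genes was not tested.

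Domains with an expressed start were covered least in the mutants. Where the highest gene starting in a domain reached 10 CPM in p20 controls (22 domains), coverage was 20.2%, 25.2% and 15.9% in dcKO and 29.9%, 18.2% and 18.5% in the Dis3 knockout. Where it stayed under 1 CPM (166 domains), coverage was 42.6%, 46.3% and 35.1% in dcKO and 51.2%, 40.1% and 41.2% in the Dis3 knockout. The 19 domains in between had means of 28.7% and 29.7%. In the adult controls the means were 83.0% at 10 CPM or more, 76.8% in between and 82.8% under 1 CPM, or 75.2%, 70.3% and 77% without control 2. The difference between the class under 1 CPM and that of 10 CPM or more was -0.226 ± 3.55 points in adult controls and 22.0 ± 0.762 in the Dis3 knockout (SD, n = 3), and 20.9 ± 1.62 in dcKO. The levels were chosen after the values were seen, so no test is given. The classes had similar CG content (medians 14.5, 15 and 15) and similar polymerase coverage at p20 (1.27%, 1.75% and 1.57%). At the genes with the most RNA, polymerase coverage was 0% for Ccno (1020 CPM) and 8.41% for Slc30a3 (301 CPM). At this low level it did not separate expressed from silent starts, and the part of either measure was not tested. The remaining 34 domains with a start had no gene with a count row.

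**Figure D5:**
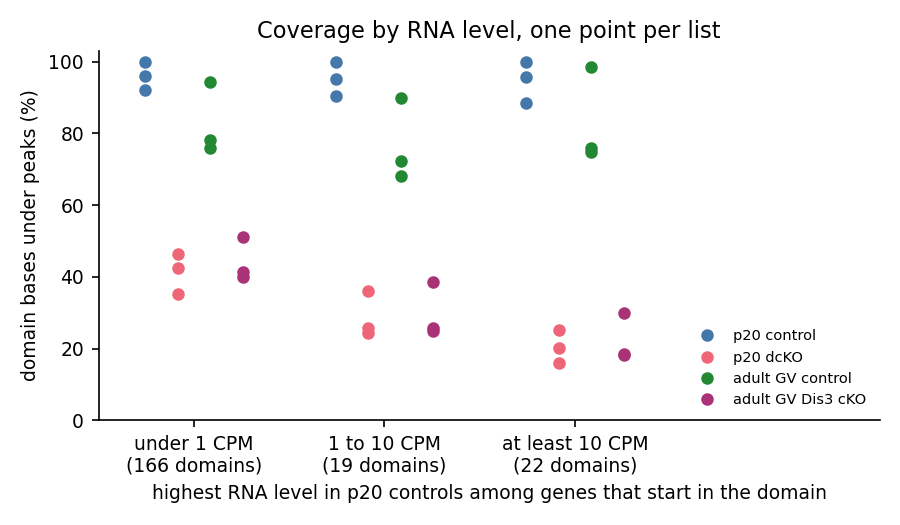
Percent of domain bases covered in each of the 12 lists (a point per list) for domains grouped by the highest RNA level, in CPM in p20 controls, of a gene starting in them. In both mutants coverage is lowest for domains with a start at 10 CPM or more; in each adult control list it is lowest for those at 1 to 10 CPM.

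Ccno, which encodes cyclin O and is needed for multiciliated cells, was the highest of these genes and was singled out after its values were seen. Its RNA ranged from 917 to 1117 CPM in p20 controls with a median of 1025, and from 1289 to 1790 in dcKO with a median of 1426. No dcKO library was as low as the highest control, and the log2 fold change was 0.39 ± 0.08 SE (edgeR quasi-likelihood test, adjusted p = 0.00017). Its RNA was not among the domain genes called in the adult Dis3 knockout. Its domain (chr13:112985589-112991780) had no peak in any of the 6 mutant lists and was covered to 85.0%, 98.2% and 79.7% in adult controls. Slc30a3, a zinc transporter at 301 CPM in p20 controls, had the same pattern, with means of 86.3% in adult controls and 0% in both mutants, and its RNA did not pass the test (log2 fold change -0.02, edgeR adjusted p = 0.894 in dcKO). An expressed start was not always in an emptied domain: the domain of Esrrb (99.6 CPM), a nuclear receptor, was covered to 53.4% in dcKO and 59.2% in the Dis3 knockout.

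Of the 303, 61 had counts enough to be tested at p20. In dcKO, 13 (21.3%) were higher and 16 (26.2%) lower at an edgeR adjusted p under 0.05, against 26.6% and 27.1% of all 15882 genes tested. The 61 passed a filter on low counts and do not stand for all domain genes. Their median log2 fold change was -0.25, and that of all genes tested -0.01. Scaled to the spike-in RNAs, 7 (11.5%) were higher and 14 (23%) lower, against 17.8% and 20.4% of all genes. The split turned with the way genes were assigned: of 44 tested genes with at least 50% of the body in domains, 15 (34.1%) were higher and 6 (13.6%) lower. In the adult Dis3 knockout 60 were tested, with 4 (6.67%) higher and 2 (3.33%) lower, against 15.7% and 12.4% of all genes. Their median was -0.04, against 0.03. Scaled to the spike-in RNAs, 2 of the 60 (3.33%) were higher and 21 (35%) lower, against 4.56% and 40.1% of all genes. On counts summed per tag edgeR called 0 of 104 domain genes and 0 of all 20190 genes tested. In the p20 Dis3 knockout 3 of the 61 (4.92%) were higher and 2 (3.28%) lower, against 3.61% and 3.76% of all genes. In the p20 Exosc10 knockout 1 (1.64%) was higher and 4 (6.56%) lower, against 3.95% and 3.5%.

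Among the 8 largest rises in dcKO, Celf5, which encodes an RNA-binding protein, was also called in adults. It ranged from 9.66 to 21.2 CPM in p20 controls (median 14.8) and from 27.4 to 62.4 in dcKO (median 43.8), with no overlap (log2 fold change 1.35 ± 0.20 SE, edgeR adjusted p = 6.19e-07). In adults it went from 10.6 to 17 CPM in controls and from 19.8 to 34.5 in the Dis3 knockout (0.81 ± 0.12, edgeR adjusted p = 8.66e-05). Foxc1, a mesoderm forkhead factor, ranged from 9.61 to 26.7 CPM in controls and from 14.9 to 116 in dcKO, and the ranges overlapped (log2 fold change 1.31 ± 0.32, edgeR adjusted p = 0.000834). The matrix gene Cilp2 ranged from 0 to 1.47 CPM in controls and 2.52 to 14.9 in dcKO, and the glycosyltransferase gene B4galnt4 from 0.371 to 2.73 and 2.56 to 13. The adhesion gene Cntn2 ranged from 2.31 to 9.38 and 2.47 to 54.5, and missed the threshold with counts summed per tag (edgeR adjusted p = 0.0911). Agap2 was called at an edgeR adjusted p of 0.0383, and not under the replicate block, spike-in scaling, no filter or sums per tag (edgeR adjusted p = 0.0968, 0.0561, 0.0649 and 0.0637). The long noncoding RNA 9530059O14Rik was under 1 CPM in every p20 control. Like Agap2, it passed the filter on low counts only with the dcKO libraries, so the direction of either call was fixed by the filter. The noncoding RNA Gm15510 was called although 7 of 8 dcKO libraries were also under 1 CPM, 4 of them at 0, and it passed the filter through the single knockouts.

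Esrrg, an orphan nuclear receptor, was among the 8 largest falls in dcKO. It ranged from 41.7 to 71.8 CPM in p20 controls (median 55.2) and from 2.37 to 24.3 in dcKO (median 5.11), again without overlap (log2 fold change -3.10 ± 0.35 SE, edgeR adjusted p = 6.45e-09). In adults it ranged from 53.0 to 91.6 CPM in controls and from 5.86 to 58.8 in the Dis3 knockout (-1.19 ± 0.32, edgeR adjusted p = 0.00981). Ankrd33b, an ankyrin repeat gene, had the largest fall, from a median of 23.5 CPM to 0.883 (log2 fold change -4.68 ± 0.61, edgeR adjusted p = 1.03e-07). Lower in dcKO were also Tal1 (-4.36), a blood factor; Sim1 (-3.32), a hypothalamic factor; Prrx1 (-3.00), a limb mesenchyme factor; Lmx1a (-2.72), a midbrain factor; Barhl1 (-2.50); and Arid3c (-2.35). Tal1 and Sim1 passed the filter on low counts only with the p20 control libraries, so the direction of these calls was fixed by it. Arid3c, which encodes an AT-rich DNA-binding protein, was also lower in the adult Dis3 knockout (-1.45 ± 0.37, edgeR adjusted p = 0.00618).

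The other 3 adult calls rose. Pdx1, a pancreatic homeobox gene, ranged from 17.4 to 24.1 CPM in adult controls (median 21.8) and from 28.5 to 77.9 in the Dis3 knockout (median 42.9), without overlap (log2 fold change 1.05 ± 0.15 SE, edgeR adjusted p = 6.13e-05). Ccdc106 ranged from 4.68 to 8.74 CPM and from 9.38 to 27.6 (1.30 ± 0.19, edgeR adjusted p = 7.18e-05), with a domain (chr7:5051676-5058018) at 7.3%, 0% and 0% coverage in the knockout. The noncoding RNA BB283400 ranged from 0 to 0.229 CPM in controls and from 0.423 to 3.34 in the knockout. It passed the filter on low counts only through the knockout libraries, so its direction was fixed by the filter. Scaled to the spike-in RNAs, the adult median of all genes moved to -0.52, and Pdx1 and Celf5 no longer passed the test. With counts summed per tag, none of the 6 adult genes passed it (edgeR adjusted p = 0.133 to 0.263).

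RNA of the complex that writes the mark was measured as well. Of 15 PRC2 and H3K27 demethylase genes, 14 were tested, and in dcKO none rose and 8 (57.1%) fell, against 26.6% and 27.1% of all genes. Ezh2 went from 462 ± 17.1 CPM in p20 controls to 300 ± 77.2 in dcKO (SD, n = 8; log2 fold change -0.78 ± 0.12 SE, edgeR adjusted p = 1.87e-06), and Suz12, a core subunit, from 757 ± 78.0 to 477 ± 78.4 (-0.83 ± 0.11, edgeR adjusted p = 2.18e-07). The demethylase gene Kdm6b was also lower (-0.91 ± 0.12, edgeR adjusted p = 1.13e-07). In the adult Dis3 knockout none rose and 2 (14.3%) fell, against 15.7% and 12.4% of all genes. These were Kdm6b (-0.39) and Phf1 (-0.28), while Ezh2 and Suz12 did not pass the test (-0.18 and -0.14, edgeR adjusted p = 0.22 and 0.137). On adult counts summed per tag, 0 of all 20190 genes passed, so neither fall was called there. Spike-in scaling moved the adult median of all genes to -0.52, so the adult values of PRC2 genes depend on the scaling. The part of PRC2 and demethylase RNA in the coverage of the domains was not tested.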

How the data were processed

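H3K27me3 CUT&Tag peak lists of 12 libraries, RNA polymerase II lists of 9 libraries and gene counts of 48 single-oocyte RNA libraries were used. Per the labels, every CUT&Tag library was cut down to the same random number of reads, with duplicates kept. The deposited lists give each peak's total and maximum signal; SEACR is named as a peak caller in the submitters' processing notes, with build mm10 (GRCm38), and the lists are separate for each library. The authors deposited whole-number counts per gene, and the notes name cutadapt 2.5, STAR 2.7.2a and HTSeq 0.9.1. The IgG libraries and the poly(A) libraries were not analysed here.

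A peak's total signal was spread evenly over its length, and coverage, pieces and signal were read within each domain (Python 3.11.15, pandas 2.3.3, scipy 1.17.1). Narrow peaks were under 2 kb. Counts were tested with edgeR 4.0.16 (R 4.3.3): TMM scaling, filterByExpr, quasi-likelihood F test, Benjamini-Hochberg adjustment over all genes, threshold 0.05, 1 fit for the 4 p20 groups and 1 for the 2 adult groups. CPM scale counts to a library's gene counts, without TMM. DESeq2 1.42.0 was an alternative. The edgeR step was tested on simulated data. Gene starts, 1-based, came from RefSeq tables of GRCm38, which are not complete. The text names the 10 longest domains, the 5 best and 5 least covered in adult controls, the 3 on each side of the threshold, genes starting in them, regulators starting in domains, and up to 8 rises and 8 falls per RNA comparison; Ccno, Slc30a3, Esrrb, 8 of the 17 groups of at least 4 neighbouring domains, and domains kept or lost were added after their values were seen. The members and gene lists were chosen with earlier results of these data known. Precision is limited by 3 lists per group, and each peak list carries no count of reads per domain.

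For H3K27me3, same-numbered adult lists did not deviate together (r of -0.00269, -0.0154 and -0.0731 across domains), so the numbers were not used as pairs in the main tests.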

Additional observations from a re-analysis of the deposited data

Results flagged for a closer look

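For RNA of the named domain genes, 50 groups of 8 libraries were examined, and in 9 of them 1 library stood far from the others (a gap to its nearest neighbour above Dixon's 95% critical share of the range). Chance alone gives about 1 in 20 such groups. In p20 controls the highest library had 0.508 CPM of 9530059O14Rik, with the others at up to 0.215, and 1.47 CPM of Cilp2, with the others at up to 0.591. Also in p20 controls, the highest library had 10.7 CPM of Sim1, with the others between 0.152 and 4.61, and 11.5 CPM of Lmx1a, with the others between 1.52 and 4.99. In dcKO the highest library had 6.99 CPM of 9530059O14Rik, with the others between 0.419 and 2.83, and 1.06 CPM of Gm15510, with the others at up to 0.237. It had 0.353 CPM of Tal1, with the others at up to 0.0791, and for Esrrg 24.3 CPM, with the others between 2.37 and 8.14. In adult controls the highest library had 0.229 CPM of BB283400, with the others at up to 0.0713.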

How the results depend on the processing

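The adult differences in coverage, log2 signal and log2 domain over narrow-peak coverage kept their direction under every alternative run on domains chosen in the controls. In domains chosen by the same rule in dcKO and in the Dis3 knockout, the adult coverage difference turned to 4.68 and 19.4 points. Leaving out 1 list at a time, they ranged from -36.0 to -28.0 points, -2.37 to -2.19 and -1.34 to -1.18. Pieces per domain ranged from 0.365 to 1.04 and turned to -0.166 with equal numbers of peaks (84033 per list) and to -0.349 with equal covered length (64.554 Mb). The replicate block left the adult coverage difference at -32.5 points (an exact paired test, which cannot go below p = 0.25). As a term in the edgeR fit it gave 28 calls among 61 domain genes in dcKO (45.9%), against 29 (47.5%) without it. Of all 15882 genes, 53.0% were called with the block and 53.7% without it. Same-numbered p20 RNA libraries had an r of -0.227 to 0.0824, and 1 of 8 was the best match of its number. No shared deviation was thus seen, which cannot show whether same-numbered libraries had a common origin.

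For p20 dcKO minus control, coverage (-50.3 points) was -52.3 to -47.5 without 1 list, -58.1 with stricter peaks (total signal above 1618), -60.0 with equal numbers, -62.3 with equal length, and turned to 6.84 in the domains chosen by the same rule in dcKO. Pieces (2.27) were 1.87 to 2.62 without 1 list, 1.27 at 3 kb, 5.20 at 10 kb, 2.83 for domains wide in all 3 controls, 1.13 with stricter peaks, 0.938 and 0.772 with equal number and length, and 0.792 with gaps of up to 1 kb joined. Log2 signal (-2.77) was -2.89 to -2.59 without 1 list, -2.44 at 3 kb and -3.08 with equal length. For adult minus p20 controls, coverage (-15.0) was -19.5 to -12.4 without 1 list, -21.5 at 3 kb and -8.40 at 10 kb; pieces (1.31) were 0.907 to 1.76, 2.31 at 10 kb and 0.216 with gaps joined; log2 signal (-0.17) was -0.29 to -0.09.

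Domain genes called in dcKO numbered 74 of 178 tested (41.6%) at 3 kb and 2 of 5 (40%) at 10 kb. The main count was 29 of 61 (47.5%), and 53.7% of all 15882 genes were called. The width changed how many domain genes were tested. In adults the calls numbered 6 of 60 (10%), 31 of 171 (18.1%) at 3 kb and 1 of 7 (14.3%) at 10 kb. Of all 15334 genes, 28.1% were called. Spike-in scaling gave 23 of 60 (2 higher, 21 lower), against 699 higher and 6144 lower of all 15334 genes. In edgeR on counts summed into 2 sums per group, 0 of 104 domain genes and 0 of all 20190 genes passed. There 14 domain genes were at an unadjusted p under 0.05. DESeq2 on single libraries called 9 of 60 (15%), against 31.5% of all genes. Of the named genes, Agap2 missed the threshold under the block, spike-in scaling, no filter and the sums, Cntn2 under the sums, all 6 adult genes under the sums, and Pdx1 and Celf5 under spike-in scaling. The cause of these changes was not tested. With 3 lists a group, no H3K27me3 test could pass 0.05.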

Other observations

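RNA of the domain genes, summed over the 248 with counts, stood at 2088 ± 98.4 CPM in p20 controls and 2604 ± 209 in dcKO (SD, n = 8 each). In adults it stood at 2174 ± 93.1 in controls and 2332 ± 158 in the Dis3 knockout. Ccno alone made up 48.8% of the sum in p20 controls, 57.4% in dcKO, 44.7% in adult controls and 47.7% in the adult Dis3 knockout, so the sum is mostly a reading of a few genes.

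Several groups of domains beside the Hox clusters lay close together. The 4 domains over Dmrt1 and Dmrt2, regulators of gonad and somite development, were covered to 32.5% in dcKO, 79.0% in adult controls (69.6% without control 2) and 33.9% in the Dis3 knockout (chr19:25562054-25676919). The 4 domains over Asic4, Slc4a3 and Speg (chr1:75384046-75555302), which encode an ion channel, an anion exchanger and a muscle kinase, differed less, with 65.9%, 67.5% and 70.5%. The 4 over the signalling gene Wnt7b (chr15:85533515-85580748) had 54.2%, 71.1% and 56.3%.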
